A study of Ovis aries with 8 samples.

Results

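The 6 rows described here carry the sheep Ensembl identifiers ENSOARG00000000016, ENSOARG00000000019, ENSOARG00000000021, ENSOARG00000000022, ENSOARG00000000023 and ENSOARG00000000035, out of 27054 rows in the count table. They were chosen by identifier alone, because identifiers 1 to 37 are thought to follow the order of genes along the mitochondrial genome. In that order the 6 rows would be mitochondrial genes for cytochrome and ATP synthase subunits. The table itself gives no gene names, and the gene reference used (35057 genes) lists no Ensembl identifiers, so names could not be looked up. The names were to be used only if all 6 rows were among the abundant ones and the rows placed at transfer RNAs (tRNAs) between them were low. Neither condition was met in full, so the rows are given by identifier and no gene name is attached to them.

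The samples were cortical plate, the layer in which newborn neurons settle, from untreated Border Leicester/Merino sheep fetuses at 90 days of gestation. A gyrus (outward fold) and a sulcus (inward groove) were sampled in each of 4 fetuses, 2 fetuses in each of 2 ewes, which makes 4 gyral and 4 sulcal libraries. The fetuses are called E1F1 and E1F2 (ewe 1) and E2F1 and E2F2 (ewe 2). The comparison of gyrus with sulcus asks which transcripts differ between the folds while the cortex is folding. The RNA was amplified before library preparation, so reads are not independent molecules and the counting errors below leave out amplification noise. In bulk tissue, fewer cells of a type and less RNA per cell cannot be told apart. The tissue label could not be checked against marker genes, since no row has a name.

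As background, mitochondria carry a small genome of their own that encodes a few core subunits of the respiratory chain, among them cytochrome b, the large subunits of cytochrome c oxidase and a pair of ATP synthase subunits. Cytochrome c oxidase passes electrons to oxygen, and ATP synthase uses the resulting proton gradient to make ATP. The genome is transcribed into long precursors, in which tRNAs lie between many of the coding genes and mark where the precursor is cut. Mitochondrial transcripts are usually among the most abundant RNAs of neural tissue. Whether the 6 rows hold such transcripts is not shown by the files.

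Depth and one fetus bear on all that follows. Total counts per library lay between 14788987 and 23927215. Both libraries of E2F2 stood apart from the other 6. In them the 10 most abundant rows took 8.17% (gyrus) and 8.49% (sulcus) of the counts, against 13.3% to 16.6% elsewhere. More rows had a count in them (18126 and 17638, against 15984 to 17063). With identifiers 1 to 37 left out, the 10 most abundant of the remaining rows took 7.00% and 6.60% in E2F2 and 6.97% to 9.99% in the others, so these ranges overlapped. The part of library quality or amplification in the results below was not tested.

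The counts did not meet the pattern on which the names depend. Taking 100 CPM (counts per 1000000 counts of the library, over all rows) as abundant, a limit set after the counts were seen, 3 of the 6 rows qualified, as did 7.12% of all rows. ENSOARG00000000035 was the second most abundant row of the table by mean CPM, ENSOARG00000000022 ranked 26 and ENSOARG00000000016 ranked 283. The other 3 rows were below 2 CPM. ENSOARG00000000023 had 11 to 49 counts per library and ENSOARG00000000019 had 0 to 4. ENSOARG00000000021 had 0 counts in all 8 libraries, which allows at most 0.1254 to 0.2029 CPM (3 counts of each library's total, counting error only).

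Among the neighbouring identifiers, 9 positions between the first and the last of the 6 would be tRNAs, and 8 of these 9 had 0 counts in every library. The exception was ENSOARG00000000034, just before ENSOARG00000000035, with 52 to 335 counts, more than 3 of the 6 rows had in any library. Over identifiers 1 to 37, 21 rows had no count at all. The most abundant row of the whole table, ENSOARG00000000032, also lay in this range, with 257485 to 935787 counts, and so did ENSOARG00000000033, with 57967 to 206976. The 2 positions that would be ribosomal RNAs held only 315 to 842 and 119 to 329 counts. Row lengths were not used here, so these counts do not rank the rows by level per length. Reads that fit more than one place may be counted or dropped, and the setting is not given in the sources used here, so all of these rows are uncertain in that respect.

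**Figure D1:**
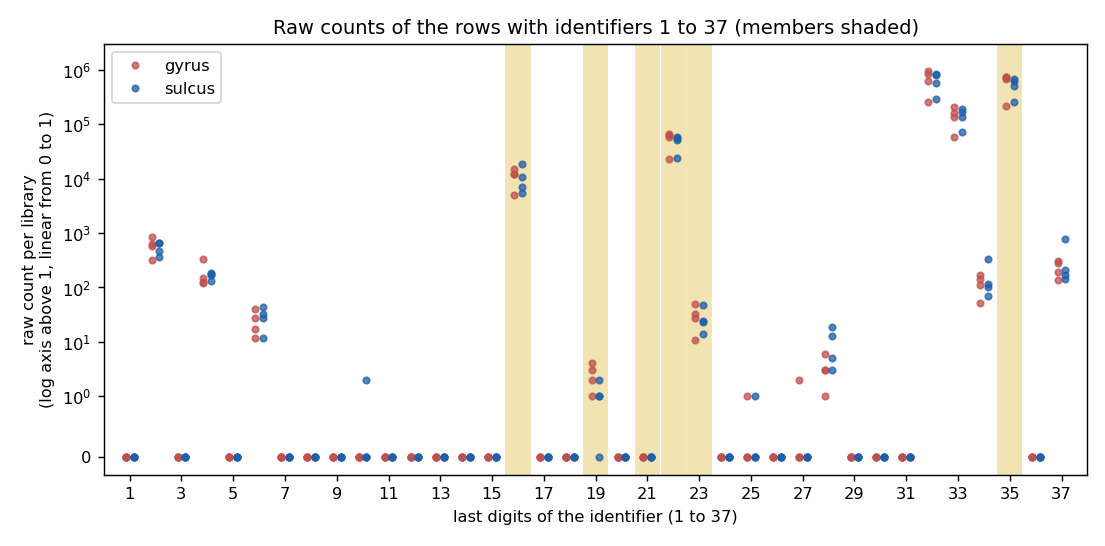
Raw count per library (vertical axis, logarithmic above 1 and linear from 0 to 1) for each identifier from 1 to 37 (horizontal axis), with 4 gyral and 4 sulcal libraries as points and the 6 rows shaded. Of the shaded rows, 3 have 5104 counts or more in every library, 2 have 49 or fewer and ENSOARG00000000021 is at 0 throughout.

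ENSOARG00000000035 supplied 88.6% to 90.8% of the counts of the 6 rows in every library. In gyri it had 34406 CPM in E1F1, 30759 in E1F2, 38781 in E2F1 and 10050 in E2F2. In sulci the values in the same order were 32521, 33762, 34432 and 13315 CPM. The gyral and sulcal ranges overlapped almost wholly, and both libraries of E2F2 lay far below the other 6. The means were 28499 ± 12729 CPM (SD, n = 4) for gyri and 28507 ± 10159 CPM (SD, n = 4) for sulci.

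ENSOARG00000000022 had the same order of fetuses in gyri, at lower counts. Its gyral values were 3089 CPM in E1F1, 2606 in E1F2, 3259 in E2F1 and 1063 in E2F2. Its sulcal values were 2914, 2847, 3453 and 1244 CPM in that order. Gyrus and sulcus again overlapped, with E2F2 lowest in both regions.

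ENSOARG00000000016 varied more within fetuses. It had 573 CPM in the gyrus and 561 in the sulcus of E1F1. The sulcus was the higher library in E1F2, with 917 CPM against 507 in the gyrus. The gyrus was the higher in E2F1, with 839.5 CPM against 481 in the sulcus. E2F2 was lowest, with 231 CPM in the gyrus and 285 in the sulcus.

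ENSOARG00000000023 was scarce in all libraries. Its raw counts were 49 in the gyrus and 24 in the sulcus of E1F1, and 32 and 47 in E1F2. E2F1 had 28 and 23, and E2F2 had 11 and 14. The 11 counts correspond to 0.499 CPM with an exact Poisson 95% interval of 0.249 to 0.892, and the 49 counts to 2.30 CPM (1.70 to 3.04). For ENSOARG00000000019 the raw counts were 1 in the gyrus and 2 in the sulcus of E1F1, and 2 and 1 in E1F2. E2F1 had 3 and 0, and E2F2 had 4 and 1. These counts are too few to order its libraries.

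**Figure D2:**
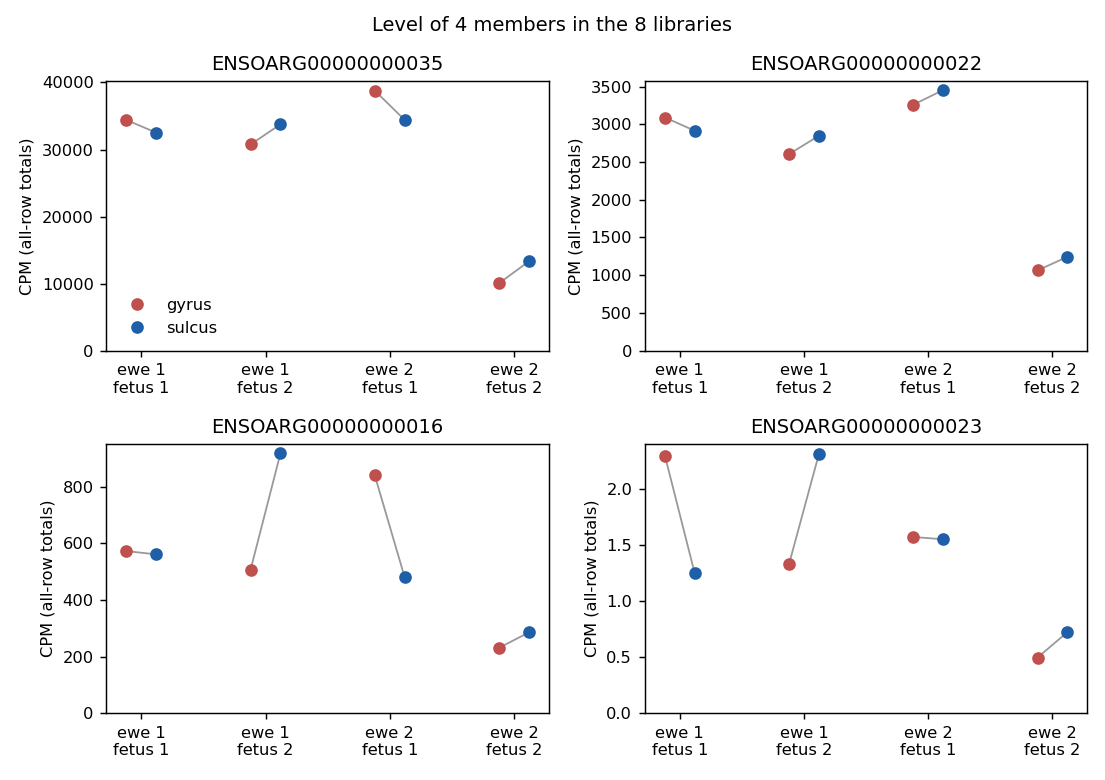
CPM by all-row totals (vertical axes, each from 0) of the 4 rows with counts in all libraries, by fetus (horizontal axes), with a line joining the gyrus and sulcus of a fetus. Both libraries of E2F2 are the lowest 2 of the 8 in each panel, while the lines slope in both directions.

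Gyrus and sulcus were then compared in a fit over the whole table. None of the 6 rows passed the threshold (edgeR quasi-likelihood test with fetus as a block, Benjamini-Hochberg adjusted p below 0.05), and 0% of the 13221 rows tested did, with 3.87% (512 rows) at an unadjusted p below 0.05. DESeq2 and limma-voom also called 0 rows, with 619 and 557 at an unadjusted p below 0.05. Of the 6 rows, 4 passed the filter on low counts and were tested, while ENSOARG00000000019 and ENSOARG00000000021 were not. None of the 4 had an unadjusted p below 0.05.

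The log2 fold change of gyrus over sulcus was -0.08 ± 0.11 (SE) for ENSOARG00000000035, with a 95% interval of -0.33 to 0.17 (edgeR, adjusted p = 0.99). ENSOARG00000000022 gave -0.10 ± 0.10, with an interval of -0.31 to 0.11 (edgeR, adjusted p = 0.99). These 2 intervals rest on the fit with all fetuses, and the values moved when a fetus was left out. Those of ENSOARG00000000035 then ran from -0.17 ± 0.12 (SE, without E2F1) to 0.01 ± 0.14 (without E2F2). Those of ENSOARG00000000022 ran from -0.18 ± 0.12 (without E1F1) to -0.06 ± 0.10 (without E1F2). A difference of more than 0.33 on the log2 scale is therefore not excluded. The interval was wider for ENSOARG00000000016, -0.09 ± 0.23 with an interval of -0.61 to 0.42 (edgeR, adjusted p = 0.995). For ENSOARG00000000023 it ran from -1.23 to 1.01 around -0.11 (edgeR, adjusted p = 0.995), which leaves room for a 2-fold difference either way. Without E2F2 the value for ENSOARG00000000035 was 0.01 (edgeR, adjusted p = 1.00), and without E1F2 that for ENSOARG00000000016 was 0.19 (edgeR, adjusted p = 0.888).

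Fetus by fetus, none of the 4 rows kept one direction in all fetuses. Over the 12928 rows with counts in every library, 7.05% were higher and 5.49% lower in the gyrus of 4 of 4 fetuses. ENSOARG00000000035 was 1.06 times as high in the gyrus as in the sulcus in E1F1, 0.911 times in E1F2, 1.13 times in E2F1 and 0.755 times in E2F2. ENSOARG00000000022 was lower in the gyrus of 3 of 4 fetuses, with ratios of 1.06, 0.915, 0.944 and 0.855 in the same order. The ratios of ENSOARG00000000016 ranged widest among the 3 abundant rows, with 1.02, 0.553, 1.75 and 0.811. Those of ENSOARG00000000023 were 1.84, 0.577, 1.01 and 0.688.

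**Figure D3:**
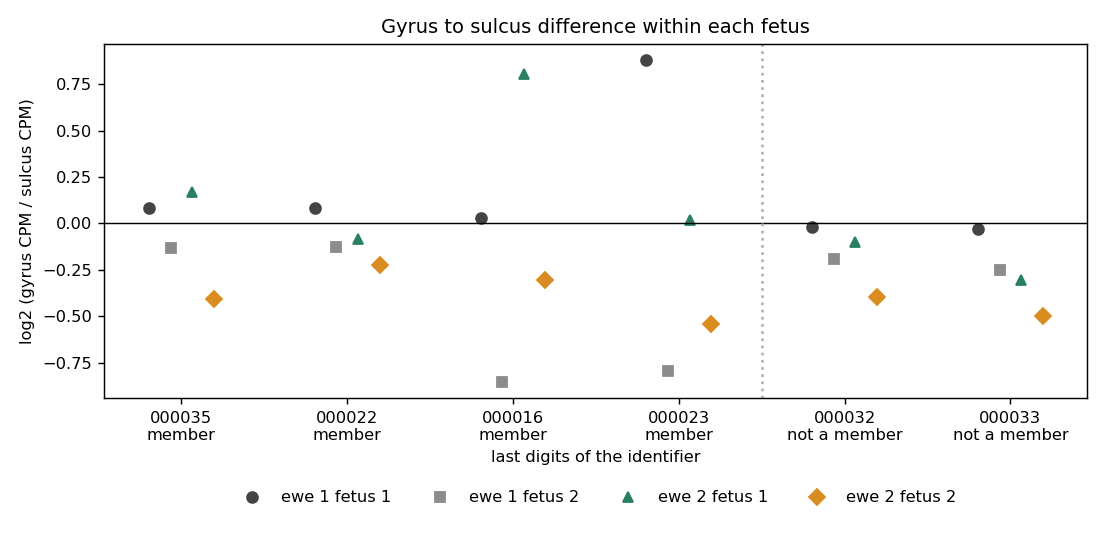
Log2 ratio of gyrus CPM to sulcus CPM (vertical axis) within each of the 4 fetuses (symbols) for 4 of the 6 rows and, right of the dotted line, for the abundant rows ENSOARG00000000032 and ENSOARG00000000033. Points of the 4 rows fall on both sides of 0, with ENSOARG00000000016 at -0.85 in E1F2 and 0.80 in E2F1.

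The summed CPM of the 6 rows was compared as well. ENSOARG00000000035 supplied most of this sum in every library, so the sum largely repeats that row and is not separate support. The sum was 38071 CPM in the gyrus and 35998 in the sulcus of E1F1, and 33873 and 37528 in E1F2. It was 42881 and 38368 CPM in E2F1, and 11345 and 14844 in E2F2. The gyrus was higher in 2 fetuses and lower in the other 2, with a mean log2 ratio of -0.07 ± 0.25 (SD, n = 4; two-sided exact permutation test by sign flips, p = 0.75, where 4 pairs allow no p below 2 of 16 sign patterns). Without E2F2 the mean was 0.03.

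The neighbouring abundant rows ENSOARG00000000032 and ENSOARG00000000033 had lower CPM in gyrus than in sulcus in 4 of 4 fetuses, at 0.761 to 0.987 and 0.709 to 0.979 times the sulcal CPM. Neither passed the test (log2 fold change -0.19 ± 0.10 and -0.28 ± 0.10, edgeR adjusted p = 0.99 each). The difference between them and the 6 rows was not tested.

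The spread within fetuses was set against counting error. For ENSOARG00000000016 the SD of the 4 log2 differences between gyrus and sulcus was 0.69, where its counts alone give 0.02. Over 525 rows at 300 to 1000 CPM, a class set after the values were seen and without identifiers 1 to 37, the median of this SD was 0.17. For ENSOARG00000000022 and ENSOARG00000000035 the SD was 0.13 and 0.26, against a median of 0.19 over 104 rows at more than 1000 CPM. The SD of ENSOARG00000000023 was 0.74 with 0.43 from counting, against a median of 0.93 over 2179 rows at 1 to 3 CPM. Of the 4 rows, ENSOARG00000000016 stood furthest above the median of its abundance class.

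Fetuses differed in the abundant rows. In the same edgeR model, the test of fetus (3 degrees of freedom, region as covariate) called 3 of the 6 rows, against 8.86% of all rows tested. These were ENSOARG00000000022 (edgeR, adjusted p = 3.80e-04), ENSOARG00000000035 (edgeR, adjusted p = 6.54e-04) and ENSOARG00000000016 (edgeR, adjusted p = 0.0378). ENSOARG00000000023 was not called (edgeR, adjusted p = 0.295). The gyrus and sulcus of a fetus serve as its replicates in this test, so it compares these 4 fetuses only.

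The difference lay in E2F2. The mean CPM of ENSOARG00000000035 in the other fetuses was 2.76 to 3.13 times that in E2F2, that of ENSOARG00000000022 2.36 to 2.91 times and that of ENSOARG00000000016 2.19 to 2.76 times. ENSOARG00000000023, which was not called, had 2.56 to 2.99 times. Of all rows tested, 2.00% were both called and lowest in this fetus, and in 2.89% both of its libraries lay below the other 6. Without this fetus none of the 3 rows was called, with edgeR adjusted p of 0.761 for ENSOARG00000000035, 0.442 for ENSOARG00000000022 and 0.880 for ENSOARG00000000016.

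The low level of E2F2 was present on both scales used. By all-row CPM, the median log2 difference of E2F2 from E1F1 was 0.30, over the 12928 tested rows with counts in every library. In the other 2 fetuses it was 0.07 and 0.05. With TMM scaling (trimmed mean of M-values, which sets the bulk of rows equal), E2F2 stood at 0.288 times the level of E1F1 for ENSOARG00000000035, a log2 difference of -1.79 ± 0.17 (SE). The values were 0.318 times for ENSOARG00000000022 and 0.377 times for ENSOARG00000000016. E1F2 and E2F1 lay at 0.865 to 1.20 times E1F1 in these 3 rows, and the 95% interval of each of these differences held 0.

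The other rows of identifiers 1 to 37 were examined in the same test. Besides the 4 rows, 7 others in this range passed the filter. Of these, ENSOARG00000000032, ENSOARG00000000033 and ENSOARG00000000002 were called (edgeR, adjusted p of 2.45e-04, 3.88e-04 and 0.0328), and the mean CPM of each was lowest in E2F2. The other 4 were not called. Of these, ENSOARG00000000004 (edgeR, adjusted p = 0.0813) did not have its lowest mean in E2F2: its mean there, 7.70 CPM, lay above that of E1F2, 5.93 CPM.

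The change from gyrus to sulcus was also compared between the ewes. None of the 4 rows passed the test of this difference, against 0.00756% (1 row) of all rows tested and 6.25% at an unadjusted p below 0.05. For ENSOARG00000000016 the difference was 0.71 ± 0.48 (SE, log2, ewe 2 minus ewe 1; edgeR interaction test, adjusted p = 0.827). It depended on the fetuses used, at 0.17 without E1F2, 0.16 without E2F1 and 1.24 when E1F1 or E2F2 was the one left out. The others were -0.05 for ENSOARG00000000035, -0.09 for ENSOARG00000000022 and -0.23 for ENSOARG00000000023 (edgeR, adjusted p of 0.959 to 0.983).

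Ratios between the rows of one library need no scaling. Of the 15 pairs of the 6 rows, 6 pairs had counts in all 8 libraries. Per 1000 counts of ENSOARG00000000035, ENSOARG00000000022 had 89.8 in the gyrus and 89.6 in the sulcus of E1F1, and 84.7 and 84.3 in E1F2. The ratios were 84.0 and 100.3 in E2F1, and 105.8 and 93.4 in E2F2. The highest of these 8 ratios was 1.26 times the lowest. The log2 differences of this ratio between regions had an SD of 0.18, where counting error alone gives 0.01. E2F2, the fetus in which both rows were lowest, had ratios within 1.26 times those of the other fetuses.

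The ratio of ENSOARG00000000016 to ENSOARG00000000035 was less even. It was 16.6 per 1000 in the gyrus and 17.3 in the sulcus of E1F1, and 16.5 and 27.2 in E1F2. In E2F1 it was 21.6 and 14.0, and in E2F2 it was 23.03 and 21.4. The highest ratio, in the sulcus of E1F2, was 1.94 times the lowest, in the sulcus of E2F1. The SD of its log2 difference between regions was 0.56, against 0.18 for the ratio of ENSOARG00000000022 to ENSOARG00000000035.

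**Figure D4:**
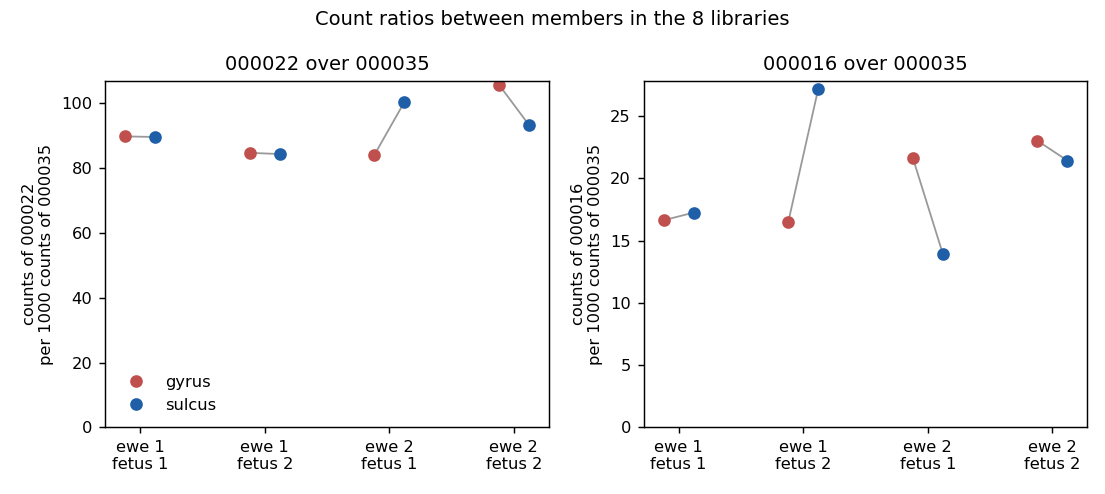
Counts of ENSOARG00000000022 (left) and ENSOARG00000000016 (right) per 1000 counts of ENSOARG00000000035 (vertical axes, from 0) in the gyrus and sulcus of each fetus (horizontal axes). The left ratio stays between 84.0 and 105.8, and the right one spans 14.0 to 27.2 with opposite slopes in E1F2 and E2F1.

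No ratio differed between gyrus and sulcus in one direction in all fetuses. The mean log2 difference of ENSOARG00000000022 to ENSOARG00000000035 was -0.02 ± 0.18 (SD, n = 4; exact sign-flip permutation test, p = 1.00). That of ENSOARG00000000016 to ENSOARG00000000035 was -0.01 ± 0.56 (SD, n = 4; exact sign-flip permutation test, p = 1.00), and that of ENSOARG00000000016 to ENSOARG00000000022 was 0.01 ± 0.66 (SD, n = 4; exact, p = 1.00). The 3 pairs with ENSOARG00000000023 gave means of -0.04 to 0.03 with SDs of 0.61 to 0.68, of which counting gives 0.43. All 6 adjusted p-values were 1.00, and the limit on p for 4 pairs applies here too.

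Other rows with a profile of like shape over the libraries were sought among 7073 rows outside identifiers 1 to 37 with a mean of at least 10 CPM and counts in all libraries. Likeness was Pearson's r over the 8 libraries between a row's log2 CPM and the mean log2 CPM of the 4 rows with counts throughout. The closest was ENSOARG00000020401 (r = 0.978), with 452 to 545 CPM in the first 3 fetuses and 299 and 327 CPM in the gyrus and sulcus of E2F2. ENSOARG00000013716 came next (r = 0.971), with 60.2 to 74.9 CPM in those fetuses and 39.1 and 43.3 CPM in E2F2. Libraries of one fetus share an animal, and E2F2 was lowest in both of these rows. Pearson's r takes no account of the size of a change, and both rows fell less in E2F2 than the 4 rows did.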

How the data were processed

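The authors deposited raw counts per sheep Ensembl gene identifier for 8 libraries (27054 rows, no row of unassigned reads). STAR 2.4.2a, featureCounts and edgeR 3.4.2 are named per the submitters' processing notes, with no role. Genome build, annotation, strand setting and the handling of reads with several alignments are not stated in the sources used. Column names matched the sample descriptions for 6 libraries. The 2 columns of ewe 2 fetus 1 (E2F1) carry one digit more and were assigned because the only other description within one digit had its own column.

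CPM used all-row totals. Tests used edgeR 4.0.16 (R 4.3.3; quasi-likelihood, robust, TMM, minimum count 10 by region), on all rows, with fetus as a block because both regions came from each fetus. Deviations from the region means correlated at 0.46 to 0.66 within fetuses (7082 rows at 10 CPM or more). The labels do not say that libraries of a fetus were prepared separately, so p-values hold for these samples only. With the block, gyrus to sulcus p-values are set against the spread of the differences within fetuses. The tests treat the 4 fetuses as independent, although fetuses of the same ewe are littermates. ENSOARG00000000019 and ENSOARG00000000021 failed the filter. DESeq2 1.42.0 and limma 3.58.1 were alternatives. On simulated data for gyrus against sulcus, 98.1% of the changed rows at 32 CPM or more were recovered at 2-fold and 58.2% at 1.5-fold (12877 and 12871 rows tested). Over all changed rows the shares were 48.5% and 23.5%. Of the rows called, 97 of 103 and 47 of 52 were truly changed. The simulated spread was the fitted one, so these shares need not hold for ENSOARG00000000016. Its SD within fetuses lay above the median of its abundance class. The 6 rows were set by identifier, but this choice, the lists and the tests were made with earlier results of these data known. The rule named the 6 rows if abundant and otherwise gave identifiers, together with their neighbours and the 2 most alike rows. Lists of nuclear respiratory genes and of cell type markers needed gene symbols and were not tested.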

Additional observations from a re-analysis of the deposited data

Results flagged for a closer look

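In sulci, ENSOARG00000000035 had 13315 CPM in E2F2, far from the next value of 32521 CPM, and the summed CPM of the 6 rows was 14844 there against 35998 or more in the other 3 sulci. In both cases the gap to the nearest fetus took 0.910 and 0.899 of the whole range, above the 95% limit of Dixon's test for 4 values. Of 34 sets of 4 values examined, 2 stood out in this way, where chance gives 1.7. The 2 are not separate, since ENSOARG00000000035 supplied most of the sum. The 34 sets also share rows, so this count is not one of independent sets. The gyral values of the same fetus were also the lowest but did not pass this limit.

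In 2 of the 6 count ratios examined, both fetuses of ewe 1 differed one way between gyrus and sulcus and both of ewe 2 the opposite way. This is a pattern of signs alone, which can arise by chance with 4 fetuses. Both ratios share ENSOARG00000000016. In its ratio to ENSOARG00000000023, E1F2 differed by only -0.06, where counting error alone gives an SD of 0.43. ENSOARG00000000016 over ENSOARG00000000023 gave a log2 difference between ewes of 0.97, and ENSOARG00000000016 over ENSOARG00000000035 one of 0.75 (ewe 2 minus ewe 1). The difference between ewes was not tested for these ratios.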

How the results depend on the processing

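Rows are given here by the last digits of their identifiers (16, 22, 23, 35), and differences are log2, gyrus minus sulcus. None of the 4 rows tested passed the gyrus to sulcus test or the interaction test under any alternative run. The count of rows called between gyrus and sulcus was 0, became 5 without a filter on low counts and 1 in ewe 1 only, and was 0 to 1 with a fetus left out (1 without E2F2). Without the replicate block it stayed 0, with 205 rows at an unadjusted p below 0.05. The fetus test called 1172 rows, 2756 without a filter, 2605 with DESeq2 and 463 to 1102 with a fetus left out (463 without E2F1, 762 without E2F2). Its calls of rows 16, 22 and 35 held under all 10 alternatives except the one without E2F2. For row 16 the call lay close to the threshold with the minimum count of 50 (edgeR fetus test, adjusted p = 0.0496). Without a filter its adjusted p was 1.36e-24 in the same test. With a fetus left out, the adjusted p of this test ran from 0.00777 to 0.880 for row 16. It ran from 4.80e-04 to 0.442 for row 22 and from 8.37e-04 to 0.761 for row 35. The interaction called 1 row, 48 without a filter, 10 with DESeq2, 0 without the replicate block and 8 to 23 with a fetus left out (8 without E1F1, 20 without E1F2, 19 without E2F1). The block changed no call among the rows described. The cause of these changes was not tested.

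The differences of rows 16, 23 and 35 and of the sum changed sign with the fetuses used, while row 22 stayed below 0 in all 14 alternatives (-0.18 to -0.049). Leaving out a fetus gave -0.39 to 0.19 for row 16 (0.19 without E1F2), -0.47 to 0.17 for row 23 (0.17 without E1F2), -0.17 to 0.0066 for row 35 (0.0066 without E2F2) and -0.15 to 0.031 for the sum (0.031 without E2F2). Ewe 2 alone gave 0.27 and ewe 1 alone -0.44 for row 16, and ewe 1 alone 0.0093 for row 23. The difference between ewes of row 16 stayed positive, at 0.16 to 1.24 with a fetus left out. It became positive without E1F1 for row 22 (0.10, range from -0.30), row 23 (0.69, from -1.17) and row 35 (0.15). It was 0.0027 for row 23 and 0.22 for row 35 (range from -0.33) without E2F2, and 0.10 for row 35 without the replicate block.

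Ratios between rows also changed sign. With a fetus left out, the ratio of row 16 to 22 ran from -0.29 to 0.25, of 16 to 23 from -0.22 to 0.32, of 16 to 35 from -0.22 to 0.23, of 22 to 23 from -0.19 to 0.29, of 22 to 35 from -0.082 to 0.063 and of 23 to 35 from -0.32 to 0.17. In ewe 1 only they were -0.39 (16 to 22), -0.46 (16 to 23), -0.065 (22 to 23), 0.0048 (22 to 35) and 0.070 (23 to 35), and in ewe 2 only 0.37 (16 to 35). The other scalings and the pseudocount of 10 changed no direction or call of the 4 rows or their ratios. With DESeq2, row 23 got no adjusted p in the fetus test, and the minimum count of 50 left it out. Rows of 0 to 4 counts allow no comparison at this depth.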
